A study of Mus musculus with 4 samples.

Results

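The claudins and their tight junction partners were followed across tumor cells with and without the kinase Pak1. The 10 genes were the claudins Cldn1, Cldn3, Cldn4, Cldn6, Cldn7, Cldn8 and Cldn12, the MARVEL protein gene Ocln, the scaffold gene Tjp1 and the junctional adhesion gene F11r. They were chosen by name: every non-control probe that the array named for these genes was taken, which gave 12 probes for the 10 genes, out of 39429 probes and 31896 gene names on the array. Cldn4 and Ocln had 2 probes each, and the brightest probe stood for a gene.

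Gene expression was measured on single-color Agilent mouse arrays in breast cancer cells derived from tumors of MMTV-Neu mice, whose Neu (Her2) oncogene is driven in mammary epithelium by the mouse mammary tumor virus promoter. The first group, called Pak1-/- here, was 2 samples from mice lacking Pak1, and the second, Pak1+/+, was 2 samples from mice with wild type Pak1. Both groups carried the Neu transgene and were grown in low calcium medium with 5% horse serum, starved of serum (3 h) and then given EGF (15 min). The design text places the samples of a group in different tumors, and the age of the mice was not given in the sources used here. The 4 arrays shared 1 slide. The Pak1-/- arrays took its positions 1 and 2 and the Pak1+/+ arrays its positions 3 and 4, and an effect of position cannot be told apart from one of genotype.

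Tight junctions seal the space between neighboring epithelial cells near their apical border. Claudins are four-pass membrane proteins whose loops build the barrier or form pores through it, occludin (Ocln) and the immunoglobulin protein JAM-A (F11r) lie beside them in the membrane, and ZO-1 (Tjp1) ties the strands to the actin cytoskeleton. Claudin adhesion is assembled in cells joined by calcium-dependent cadherin contacts, and low calcium medium is widely used to keep such contacts open in culture.

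The transcripts split into 3 sets. Cldn8 and F11r were higher in Pak1-/- cells, Cldn12, Ocln and Tjp1 were lower, and Cldn1, Cldn3, Cldn4 and Cldn7 did not pass the test. Cldn6 was not well above background on any array and was not tested. Of the 9 genes tested, 5 therefore passed an adjusted p of 0.05 in limma, where 51% of all 22014 genes tested on the array passed. A gene was higher in 22.8% of all genes tested and lower in 28.2%, so that passing the test was common on this array and the number of genes called did not set the 10 genes apart. By probe, 6 of the 11 tested passed, against 51.9% of all 27229 probes. With at least a 2-fold difference required as well, Cldn8 and Ocln were left of the 9 genes, against 12.6% of all genes tested. The groups did not overlap in 5 of the 9 genes, against 77.5% of all genes tested. The median difference over the 9 genes was -0.016 log2, with Pak1-/- minus Pak1+/+ as the direction here and below, and over all genes it was -0.055. With 75th percentile scaling the median of the 9 genes was -0.26 (processed signal) or -0.24 (normexp values).

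The median spot intensity was 322 to 331 on the 4 arrays over a median background of 39.0 to 42.0, and 62.2% to 70.4% of the probes were well above background. The lowest correlation of arrays within a group was 0.997 across probes, and between groups it was 0.954 to 0.959. The array's Pak1 probe was set beside the labels and does not settle them. It read 12.21 and 12.25 log2 on the Pak1-/- arrays and 12.04 and 12.04 on the Pak1+/+ arrays, so that it was not lower in the arrays labeled Pak1-/- (difference 0.19, SE 0.068, adjusted p = 0.070 in limma). The part of the transcript that was deleted is not given in the sources used here, and every direction is given by the labels.

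The probes behind the results are shown by the first 30 of their 60 bases, 5′ to 3′ as the files give them, for the gene with the largest difference among the 10 and for both genes with a second probe.
Cldn8 probe A_52_P549190 (mm9, chr16:88561135-88561194, minus strand): aaagatgttgtccatatgtatttcaactcc
Ocln probe A_51_P486155 (mm9, chr13:101268529-101268588, minus strand): aaatggcttttgataattgactgggctgaa
Ocln probe A_55_P2055694 (mm9, chr13:101267384-101267443, minus strand): cccaatttggtctgttttagctgaaaatgt
Cldn4 probe A_51_P356467 (mm9, chr5:135421347-135421406, minus strand): accctactaatgaatttctgtagagtggat
Cldn4 probe A_55_P2183453 (mm9, chr5:135422135-135422194, minus strand): acaacgtcatccgcgacttctacaacccta
The remaining probes lay at chr16:26357372-26357431 for Cldn1, chr5:135463283-135463342 for Cldn3, chr17:23819027-23819086 for Cldn6, chr11:69781255-69781314 for Cldn7, chr5:5505223-5505282 for Cldn12, chr7:72441126-72441185 for Tjp1 and chr1:173393848-173393907 for F11r, all on mm9. Whether a probe falls in coding sequence or in an untranslated region was not determined.

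Cldn8 encodes a claudin that limits paracellular passage of cations, best known from the distal nephron. Its normalized log2 intensity was 10.05 and 10.26 in the Pak1-/- samples and 7.89 and 7.06 in the Pak1+/+ samples. Both Pak1-/- samples were far above both Pak1+/+ samples, and the groups did not overlap. On the second Pak1+/+ array the probe was not well above background, so only 1 of the 2 Pak1+/+ arrays measured it. The unnormalized mean spot intensities were 1035 and 1253 against 228 and 128, over local backgrounds of 38.5 to 46.0. The level was 6.42-fold higher in Pak1-/- cells (2.68 log2, SE 0.29, 95% interval 1.92 to 3.45, adjusted p = 0.0022 in limma). With Agilent's processed signal scaled to each array's 75th percentile the difference was 3.57 log2, and where a probe had to be well above background on all 4 arrays Cldn8 was not tested. Cldn17, whose probe lay 54.9 kb from that of Cldn8 on chromosome 16, was higher by 0.39 log2 (adjusted p = 0.028 in limma).

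F11r encodes JAM-A, an adhesion protein of the immunoglobulin superfamily at the tight junction. It read 16.12 and 16.23 in the Pak1-/- samples and 15.65 and 15.52 in the Pak1+/+ samples. Both Pak1-/- values lay above both Pak1+/+ values, and the gap between the groups was wider than the spread within either. The difference was 0.59 log2, or 1.51-fold (SE 0.087, 95% interval 0.36 to 0.82, adjusted p = 0.0055 in limma).

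Ocln encodes occludin, a MARVEL-domain protein of the tight junction strand. Its brightest probe read 10.54 and 10.89 in the Pak1-/- samples against 11.86 and 11.81 in the Pak1+/+ samples. The level was 2.17-fold lower in Pak1-/- cells (-1.12 log2, SE 0.13, 95% interval -1.47 to -0.76, adjusted p = 0.0031 in limma). The second probe, at another position of the gene, read 7.83 and 8.10 against 9.11 and 8.96. Its difference was -1.07 log2 (SE 0.12, adjusted p = 0.0026 in limma). The Pak1-/- samples were below the Pak1+/+ samples at both probes, with no overlap.

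Tjp1 encodes ZO-1, the PDZ scaffold that binds claudin tails on the cytoplasmic side of the junction. It read 13.37 and 13.19 in the Pak1-/- samples and 13.88 and 13.91 in the Pak1+/+ samples. The Pak1-/- samples were the lower pair, by 0.61 on the log2 scale as a difference of group means, which is 1.53-fold (SE 0.090, adjusted p = 0.0055 in limma). The 95% interval of Pak1-/- minus Pak1+/+ ran from -0.85 to -0.37.

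Cldn12 encodes a claudin that lacks the PDZ-binding tail typical of the family. Its level was 12.97 on both Pak1-/- arrays and 13.47 and 13.52 on the Pak1+/+ arrays. The Pak1-/- samples were lower and nearly identical to each other. The level was 1.44-fold lower in Pak1-/- cells (-0.53 log2, SE 0.068, 95% interval -0.71 to -0.35, adjusted p = 0.0037 in limma).

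**Figure D1:**
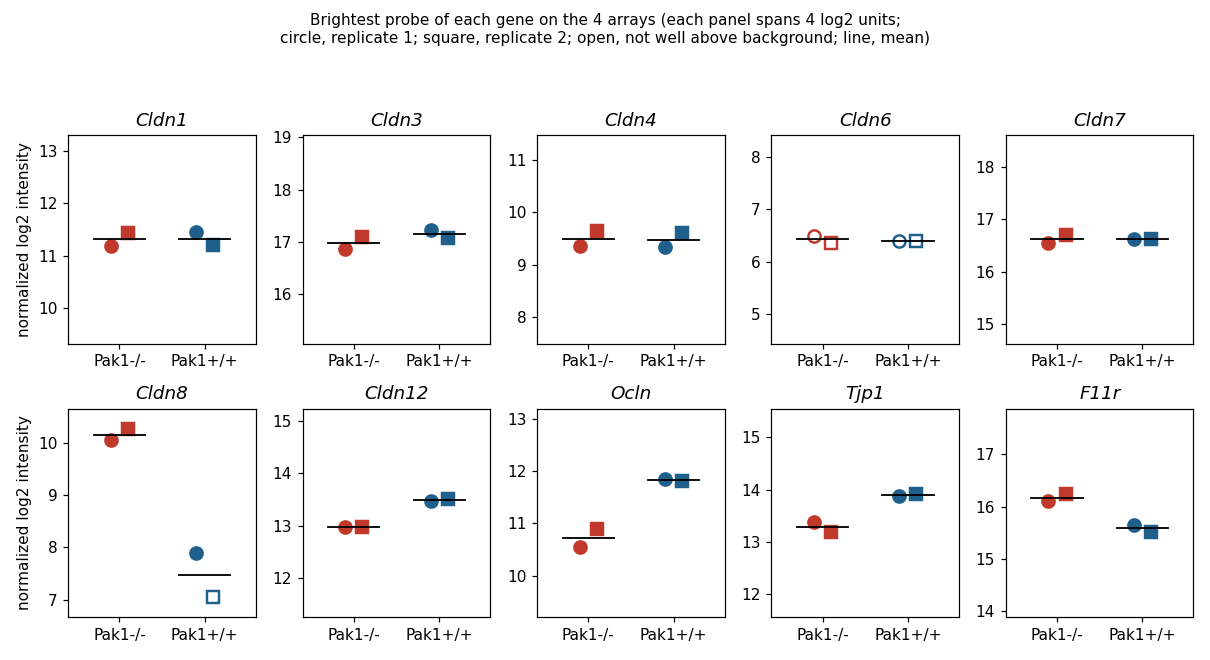
Normalized log2 intensity of the brightest probe of each of the 10 genes, 1 panel a gene and each spanning 4 log2 units; points are arrays (circle, replicate 1; square, replicate 2; open, not well above background), and lines are group means. Cldn8 and F11r sat higher in the Pak1-/- samples, Cldn12, Ocln and Tjp1 lower, and the groups overlapped in the other genes.

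Cldn1, Cldn3, Cldn4 and Cldn7 are barrier-forming claudins of many epithelia, the mammary gland included. Cldn1 read 11.18 and 11.44 in the Pak1-/- samples and 11.45 and 11.21 in the Pak1+/+ samples. Cldn7 read 16.54 and 16.70 against 16.62 and 16.63. The groups overlapped in both genes. For Cldn7 both Pak1+/+ values lay between the Pak1-/- values. The difference of Cldn1 was -0.016 log2 (95% interval -0.37 to 0.34, adjusted p = 0.93 in limma) and that of Cldn7 was -0.0047 (95% interval -0.23 to 0.22, adjusted p = 0.97 in limma). Both intervals hold differences of either sign, so the test does not show that the groups were alike.

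Cldn3 read 16.86 and 17.10 in the Pak1-/- samples and 17.23 and 17.08 in the Pak1+/+ samples. Its difference was -0.17 log2 (95% interval -0.47 to 0.13, adjusted p = 0.26 in limma), but with 75th percentile scaling of the normexp values it was -0.43 and passed (adjusted p = 0.042), while with that scaling of the processed signal it was -0.46 and did not (adjusted p = 0.060). The brightest probe of Cldn4 read 9.35 and 9.64 against 9.34 and 9.61, a difference of 0.023 (95% interval -0.36 to 0.40, adjusted p = 0.91 in limma). Its second probe read 8.94 and 9.29 against 9.22 and 9.34, and differed by -0.16 (95% interval -0.52 to 0.20, adjusted p = 0.37 in limma). The groups overlapped at both Cldn4 probes. The probes of Cldn3 and Cldn4, claudins with adjacent genes, were 41.9 kb apart on chromosome 5.

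Cldn6, an embryonic claudin, read 6.49 and 6.37 in the Pak1-/- samples and 6.40 and 6.41 in the Pak1+/+ samples. The mean spot intensities were 68.4 to 71.9 over local backgrounds of 38.0 to 42.0, and no array measured it as well above background. Its neighbor Cldn9, with a probe 1.08 kb away on chromosome 17, was measured, and differed by -0.19 (adjusted p = 0.10 in limma).

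**Figure D2:**
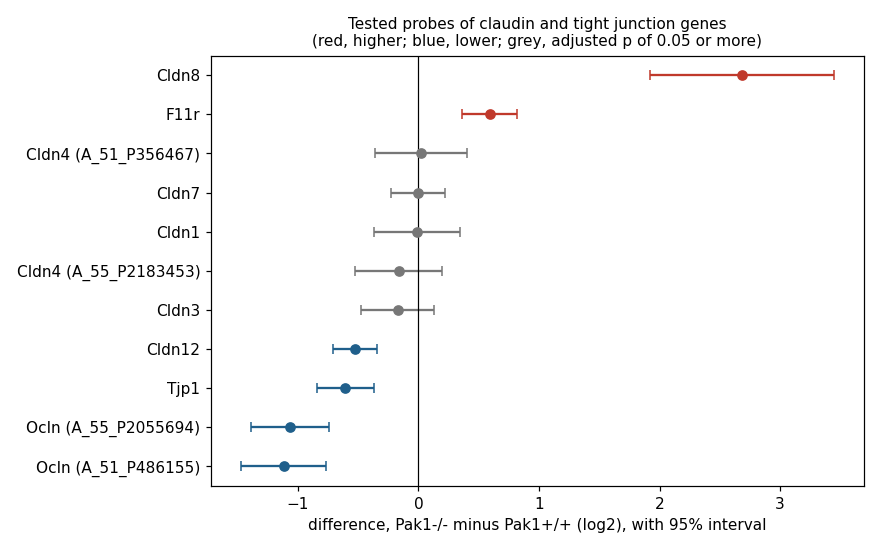
Difference between the groups, Pak1-/- minus Pak1+/+ in log2, for the 11 tested probes of the 10 genes; bars are 95% intervals from limma with 2 samples a group, and color gives the test (red, higher; blue, lower; grey, not passed). Both Ocln probes lie near -1.1, and Cldn8, at 2.68, has the widest interval.

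The spread between replicates varied among the 9 genes tested. The Pak1-/- samples differed by 0.0032 log2 in Cldn12 and by 0.35 at the brightest Ocln probe. The median absolute difference between the Pak1-/- samples was 0.23 log2 over the 11 tested probes and 0.11 over all 27229 probes tested, and between the Pak1+/+ samples it was 0.12 against 0.083. Pak1-/- replicate 2 was above replicate 1 at 10 of the 11 probes, and at 50.4% of all probes tested. Tjp1 was the exception. Probes of the same gene, as for Cldn4 and Ocln, were not independent in this count.

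**Figure D3:**
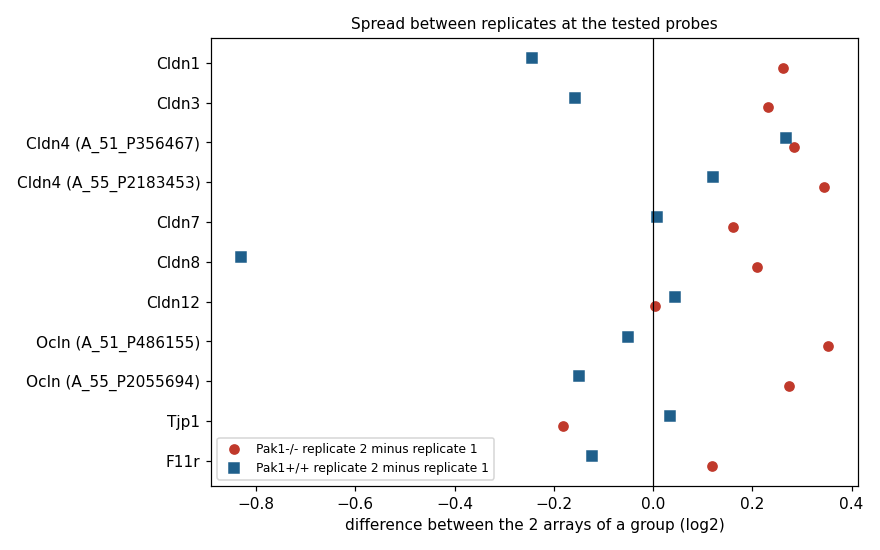
Replicate 2 minus replicate 1 within each group, in log2, at the 11 tested probes of the 10 genes. The Pak1-/- points (circles) lie to the right of 0 except for Tjp1, and the widest gap is that of Cldn8 in the Pak1+/+ samples (squares), where the second array was not well above background.

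The promoters of the genes called are shown for Ocln, Tjp1 and Cldn12, which were lower, and for F11r, which was higher, so that the sequence next to the transcription start can be set beside the direction. Each is the 250 bases upstream of the start from RefSeq (GRCm38.p6, a build other than that of the probes), and 9 of the 10 genes, all but Cldn8, were matched by symbol. Capitals mark matches on either strand to the E-box bound by Snail and ZEB factors (CACCTG), the GC box (GGGCGG), the grainyhead-like core (AACNNGTT) or the TATA box (TATAAA).
Ocln (chr13:100552719-100552968, minus strand): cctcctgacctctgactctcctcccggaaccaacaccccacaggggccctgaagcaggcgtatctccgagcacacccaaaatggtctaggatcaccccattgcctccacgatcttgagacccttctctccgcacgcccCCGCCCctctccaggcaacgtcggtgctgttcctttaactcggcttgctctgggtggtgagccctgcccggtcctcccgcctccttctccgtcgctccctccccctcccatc
Tjp1 (chr7:65371245-65371494, minus strand): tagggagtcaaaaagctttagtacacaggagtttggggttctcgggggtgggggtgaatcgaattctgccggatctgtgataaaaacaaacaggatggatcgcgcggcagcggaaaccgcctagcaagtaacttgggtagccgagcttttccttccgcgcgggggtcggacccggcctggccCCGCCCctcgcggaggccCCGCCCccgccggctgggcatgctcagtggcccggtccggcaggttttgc
Cldn12 (chr5:5514977-5515226, minus strand): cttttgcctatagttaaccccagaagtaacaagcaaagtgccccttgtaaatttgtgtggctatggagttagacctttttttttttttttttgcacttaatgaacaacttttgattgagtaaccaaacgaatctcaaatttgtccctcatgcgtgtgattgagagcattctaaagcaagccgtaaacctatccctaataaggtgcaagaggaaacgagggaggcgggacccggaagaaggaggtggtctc
F11r (chr1:171437311-171437560, plus strand): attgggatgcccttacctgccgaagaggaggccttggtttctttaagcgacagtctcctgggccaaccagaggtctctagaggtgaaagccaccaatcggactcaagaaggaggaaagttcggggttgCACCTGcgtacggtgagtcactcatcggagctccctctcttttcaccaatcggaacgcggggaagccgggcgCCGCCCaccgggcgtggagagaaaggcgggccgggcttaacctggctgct
Ocln held 1 GC box and Tjp1 held 2, and Cldn12 held none of the 4 motifs. F11r held 1 E-box and 1 GC box. Of the promoters not shown, Cldn4 and Cldn6 held an E-box each. A GC box was found in 7 of the 9 promoters and in 33% of 27025 promoters, and an E-box in 3 of the 9 and in 17.1% of all. No promoter of the 9 held the grainyhead-like core or the TATA box, which 3.65% and 13% of all promoters held. No matches of different motifs overlapped. The matches describe letters in these windows and are no evidence of binding.

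The transcription factors that act on claudin and other junction genes are of both kinds, epithelial activators and repressors of the epithelial state. Of 13 tested, 7 were higher in Pak1-/- cells, 4 were lower and 2 did not pass, where 22.8% of all genes were higher and 28.2% were lower. Among the repressors, Snai1 was higher by 1.69 log2 (SE 0.083, adjusted p = 0.00031 in limma). Snai2 was also higher, but its probe was not well above background on either Pak1+/+ array, so its level was at least 2.15-fold higher. It was kept for testing only through the Pak1-/- arrays, where it was the higher, and counts as 1 of the 7. Twist1 was lower, with a difference of -0.90 (adjusted p = 0.0011). Zeb1 (-0.13) and Zeb2 (0.27) did not pass.

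Among the epithelial factors, Klf4, a differentiation factor, was higher by 1.97 log2 (adjusted p = 0.00014 in limma). The grainyhead-like genes did not move together, since Grhl3 (1.13) and Grhl2 (0.30) were higher and Grhl1 (-1.23) was lower. Grhl3 passed narrowly (SE 0.34, adjusted p = 0.045 in limma). Its Pak1-/- samples read 7.85 and 8.84, and its Pak1+/+ samples 7.30 and 7.13. The Ovol genes also differed in direction, with Ovol2 (0.35) higher and Ovol1 (-1.03) lower. Of the epithelial Ets factors, Ehf (0.67) was higher and Elf3 (-0.32, adjusted p = 0.044 in limma) was lower.

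The rest of the tight junction was described from lists of genes by role. Of 52 other tight junction genes tested, 22 were higher, 9 were lower and 21 did not pass, with a median of 0.058 log2. The 31 called are to be read against the 51% of all genes that passed. By direction, 22.8% of all genes tested were higher and 28.2% were lower. The counts of each list by role below are to be read against these shares.

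Among 12 other claudins tested, 3 were higher, 2 were lower and 7 did not pass. Cldn10, which forms ion-selective pores, read 6.84 and 7.23 in the Pak1-/- samples and 10.48 and 9.82 in the Pak1+/+ samples, a difference of -3.12 (SE 0.26, adjusted p = 0.0012 in limma). The array named this probe for the Cldn10a variant. Cldn22 read 10.43 and 10.35 against 8.31 and 7.98 and was higher by 2.25 (SE 0.13, adjusted p = 0.00046 in limma). The other claudins past the test were Cldn2, a pore-forming claudin that was not well above background on the Pak1+/+ arrays and was at least 1.43-fold higher, Cldn17 (0.39), and Cldn20 (-0.56), which were named after their values were seen. Cldn2 was kept for testing only through the Pak1-/- arrays. Its place among the 3 higher claudins, and among the 22 higher of the 52 genes, followed in part from the filter. For a further 5 claudins, no array gave a signal well above background.

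F11r belongs to a family of immunoglobulin adhesion proteins. Of 5 other JAM and CTX immunoglobulin genes tested, 3 were higher and 2 did not pass, with a median of 1.19. Jam3, a further gene of this list, was well above background on Pak1+/+ replicate 1 only and was not tested. Its values were lower in the Pak1-/- samples, at 6.29 and 6.28 against 7.08 and 6.87. Jam2 read 13.13 and 13.15 in the Pak1-/- samples and 10.84 and 10.85 in the Pak1+/+ samples, a difference of 2.30 (SE 0.066, adjusted p = 0.00011 in limma). The second Jam2 probe differed by 1.17. Igsf5, also called JAM4, was higher by 1.32 and Cxadr, the coxsackievirus and adenovirus receptor, by 1.19, or 0.57 at its second probe. Among the MARVEL genes, the family of Ocln, and the angulins of tricellular contacts, taken as a single list, 3 of 5 were higher and 2 did not pass (median 0.37). Marveld3 counted as higher by its brightest probe (0.54), while its second probe did not pass (-0.023). Ildr1, which marks tricellular contacts, was higher by 1.11.

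Among the scaffolds of the cytoplasmic plaque, the group of Tjp1, 6 of 14 were higher, 2 were lower and 6 did not pass (median 0.083). Mpdz, a multi-PDZ protein that binds claudins, was higher by 1.13, and Ybx3, the ZO-1-associated Y-box factor, was lower by 1.40 as a difference of group means (-1.40, SE 0.072, adjusted p = 0.00035 in limma). Of the apical polarity genes, 4 of 11 were higher and 4 were lower. Pard3 counted among the lower by its brightest probe (-0.45), while its other 3 probes differed by 0.16, 0.23 and 0.24, of which the probe at 0.23 passed as higher. Pard6g read 12.70 and 12.40 against 9.37 and 9.38, a difference of 3.18 (SE 0.12, adjusted p = 0.00016 in limma), and Prkci, the atypical protein kinase C bound by Par6 proteins, was higher by 1.53.

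Of 5 membrane partners of claudins, 3 were higher, 1 was lower and 1 did not pass, with a median of 0.37. Cdh1, which encodes E-cadherin, was higher by 1.19 (SE 0.10, adjusted p = 0.0012 in limma).

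**Figure D4:**
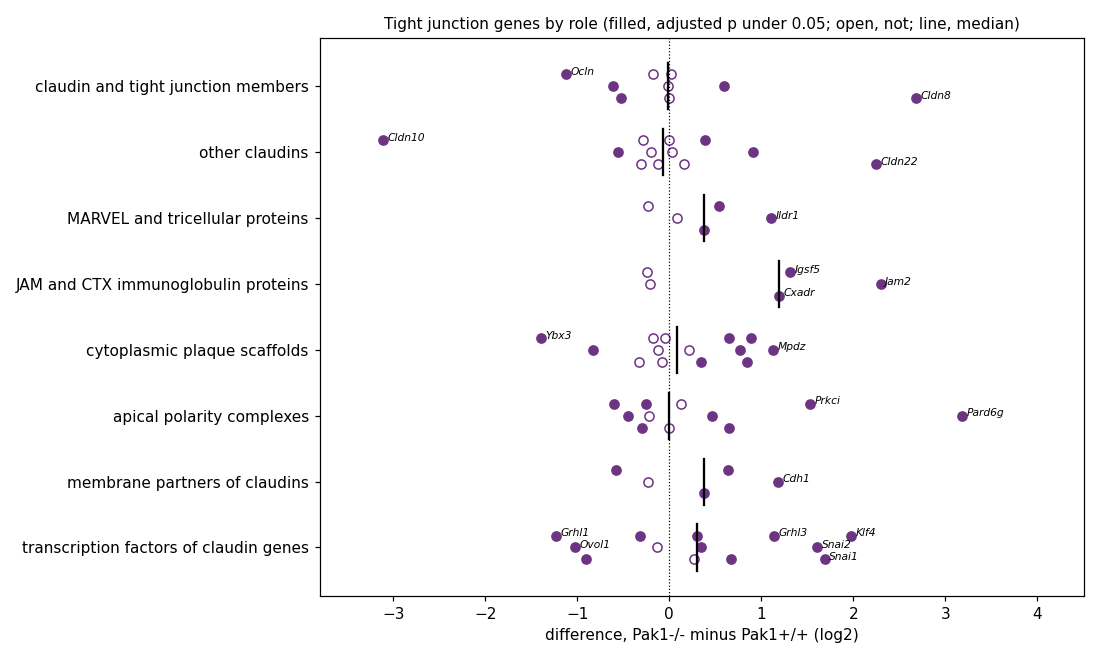
Difference between the groups, Pak1-/- minus Pak1+/+ in log2, for the brightest tested probe of the 9 tested genes and of the other tight junction genes and transcription factors by role; filled points passed the test, open points did not, lines are medians, and genes at 1 log2 or beyond are named. The 9 genes lie on both sides of 0, and Cldn10 and Pard6g are the extremes. Cldn2 and Snai2, not well above background on the Pak1+/+ arrays, are drawn at their fitted difference.

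Markers of cell types differed between the groups as well. Their counts are to be read against 22.8% of all genes tested that were higher and 28.2% that were lower. The luminal keratins Krt8 and Krt18 read 18.09 log2 or more on every array and were higher in the Pak1-/- samples, by 0.57 and 0.27. Krt7 (-1.10, adjusted p = 0.00056 in limma) and Erbb2 (-0.31) were lower, and Krt19, at 6.94 to 8.13, did not pass (-0.64). The basal markers Krt5, Krt14, Krt17, Trp63, Acta2 and Mylk were all higher in the Pak1-/- samples (6 of 6, median 1.41), and their summed normalized intensity was 87257 to 95311 there against 19102 to 19609 in the Pak1+/+ samples. The luminal list, which shares Epcam and Cdh1 with the membrane partners, had 3 of 7 higher and 2 lower, with a summed intensity of 1029251 to 1040429 against 918177 to 925348. Krt8 and Krt18 made up most of the luminal sum, and Krt14 most of the basal sum in the Pak1-/- samples. Of 3 fibroblast markers tested 1 was higher, Col1a1, while Col3a1, Dcn, Lum and Pdgfrb were at background on all 4 arrays. Leukocyte markers were lower in 2 of 5 tested, Ptprc (-0.45) and Adgre1 (-1.05), with a summed intensity of 50508 to 72951 in the Pak1-/- samples against 41648 to 46633. The brightest Itgam probe, at 15.20 to 16.07 log2, made up most of this sum and did not pass, and the other Itgam probes read 7.35 to 8.23. The endothelial markers Pecam1, Cdh5 and Kdr did not pass at their brightest probe. A second Kdr probe, not well above background on the Pak1+/+ arrays, was at least 2.17-fold higher. Tek and Emcn were at background on all 4 arrays, and of the 4 adipocyte markers Adipoq and Lep were at background on all 4 arrays. The part of these markers in the differences of the 10 genes was not tested, and in bulk samples fewer cells of a type and less RNA per cell cannot be told apart.

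**Figure D5:**
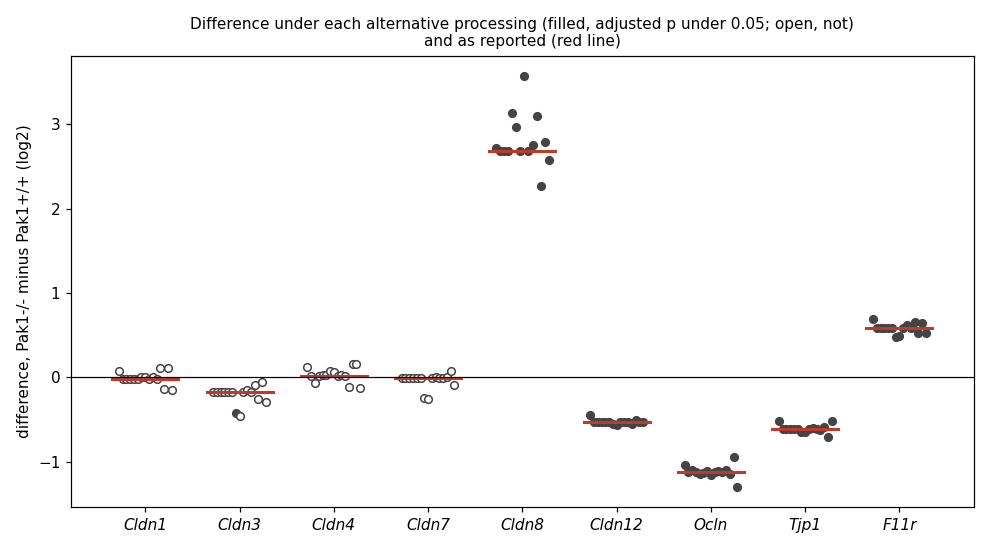
Difference between the groups, Pak1-/- minus Pak1+/+ in log2, for the 9 tested genes as processed here (red line) and under each alternative (points; filled where the adjusted p was under 0.05, open where not). Cldn8, F11r, Cldn12, Ocln and Tjp1 stayed filled on their side of 0, and Cldn1, Cldn4 and Cldn7 had points on both sides.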

How the data were processed

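RNA (0.5 ug) was amplified and labeled with Cy3, and scanned images were processed by the authors with Agilent Feature Extraction 9.5 (9.5.3.1 per the file headers). The scanner output they deposited gives linear intensities of spots, not normalized between arrays, with mm9 probe coordinates. A deposited log2 table, normexp corrected and quantile normalized by the authors, had values in 24008 of 39485 rows and was used as an alternative.

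Here, normexp (offset 50) was run in limma 3.58.1 (R 4.3.3), control spots were left out, and quantile normalization followed on log2 values. Outlier spots were set aside, spots of a probe averaged, and a probe kept if 2 or more of the 4 arrays had it well above background (27229 probes, 69.1%). An offset understates the change of dim probes. Groups were compared with lmFit and eBayes (two-sided, genotype only), with Benjamini-Hochberg adjustment over all probes kept and a threshold of 0.05. An SD is over 2 samples, residual degrees of freedom were 2 and the prior added 2.62. An exact permutation test cannot give a p below 0.333 here. The number of arrays limits the precision. "At least N-fold" sets the brighter group's mean against, on each array of the dimmer group, the lowest signal found well above background, or the dim probe's value if that was larger. No offset, filter or adjusted threshold is given in the sources used here. Genes were named through RefSeq accessions (26055 of 32334 matched). Promoters were read with Python 3.11.15.

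The 10 genes and the lists were chosen with earlier results of these data known. Named genes were all 10, in each other tight junction list up to 4 genes with an adjusted p under 0.05 and at least a 2-fold difference, and all listed transcription factors; cell type markers were named for the check of the cells, outside this rule, as were Cldn9, a neighbor of Cldn6, and the genes Pard3 and Marveld3, whose probes disagree. Jam3, which was not tested, was also named outside the rule. Other exceptions are stated. A gene of the lists is not reported here and was left out of their counts. Alternatives were other offsets, scalings, filters, thresholds, priors, the authors' table, the replicate number as a block and leaving out each sample. The human samples of the study were not analysed here.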

Additional observations from a re-analysis of the deposited data

How the results depend on the processing

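The calls of Cldn8 (14 alternatives), F11r, Cldn12, Ocln and Tjp1 (15 each) kept their direction and an adjusted p under 0.05 in each alternative that refitted them. The stricter thresholds are counted apart, and requiring 2-fold as well ended the calls of F11r, Cldn12 and Tjp1. Their differences ranged from 2.27 to 3.57 log2 for Cldn8, 0.48 to 0.69 for F11r, -0.56 to -0.45 for Cldn12, -1.30 to -0.94 for Ocln and -0.70 to -0.52 for Tjp1. Of 134 values of single genes, 122 kept their direction and their side of the threshold, 11 changed sign and 1, Cldn3 with 75th percentile scaling of the normexp values (-0.43), newly passed. The changes of sign were in genes that did not pass. Cldn1 became 0.0040 with Agilent's processed signal scaled to the 75th percentile, 0.0090 with that scaling of the normexp values, 0.077 with cyclic loess and 0.00095 in the authors' log2 table, and was between -0.15 and 0.12 when each sample was left out. Cldn7 moved to -0.26 with the processed signal and -0.24 with 75th percentile scaling of the normexp values, without passing, became 0.00076 in the authors' table and was between -0.085 and 0.076 with a sample left out. Cldn4 became -0.070 as the mean over its probes and was between -0.12 and 0.17 with a sample left out. Cldn3 kept its sign, at -0.29 to -0.057 with a sample left out.

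The median difference of the 9 tested genes was -0.26 with the processed signal and -0.24 with 75th percentile scaling of the normexp values, and between -0.15 and 0.076 with a sample left out. It was -0.15 without Pak1-/- replicate 2. The median over all probes tested was -0.081 and -0.068 with these scalings, against -0.052 as reported. Requiring 2-fold as well as an adjusted p under 0.05 left 1 gene higher (Cldn8) and 1 lower (Ocln), 11 other tight junction genes and 3413 probes. An adjusted p under 0.01 left 19 other tight junction genes and 8878 probes of 14132. A filter of all 4 arrays left 1 gene higher, since Cldn8 was then not tested. With the replicate number as a block the calls of the 10 genes were unchanged at 2 higher and 3 lower. In that fit 29 other tight junction genes and 13211 probes were called. The correlation of replicate differences over all tested probes was -0.028, which cannot show whether the numbers pair the samples. With a sample left out, 24 to 29 other tight junction genes and 10307 to 12164 probes passed. Where a value moved, the cause was not tested. Dim signal limits Cldn6 on all arrays and Cldn8 on a Pak1+/+ array.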

Other observations

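Chromosome 16 held 9 of the tight junction genes tested, a grouping noticed after the values were seen. Cldn8, Cldn17, Ildr1, Jam2, Cxadr and Igsf5 were higher in Pak1-/- cells, and Cldn1, Cldn14 and Dlg1 did not pass. Over all 698 genes tested on this chromosome, 38.3% were higher and 16.5% were lower, with a median difference of 0.17 log2, which ranked 3 from the highest among the chromosomes. Cldn12, Cldn3 and Cldn4 lie on chromosome 5, where the median over 1339 genes was -0.19. Relative to the median of its own chromosome, Cldn8 differed by 2.51, F11r by 0.63, Cldn12 by -0.34, Tjp1 by -0.55 and Ocln by -1.15. These are descriptions of the arrays, with no test.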
